A study of Mus musculus with 19 samples.

Results

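Cytochrome P450 genes were described in 3 RNA-Seq tables of mouse tissue. A gene was included when its symbol was built as Cyp, a family number, a subfamily letter and a gene number, and when it reached at least 1 FPKM in at least 1 library. Of the 93 genes with such a symbol, 67 met the limit and 26 stayed below it in every library, out of 55740 genes in all, of which 19058 met the same limit. The members were thus selected on their FPKM, and that they were expressed is no result. The 3 members closest above the limit were Cyp11a1 with a highest FPKM of 1.11, Cyp2g1 with 1.29 and Cyp2d11 with 1.75. The 3 genes closest below it were Cyp2d12 with 0.901, Cyp3a44 with 0.725 and Cyp2c39 with 0.631.

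The first table held 7 tissues of C57BL/6J WT mice without a listed treatment, with 1 library each: liver, small intestine, white adipose tissue of a depot that the labels do not name, brown adipose tissue, brain, tibialis anterior (TA) muscle and heart. Each of the other tables held 1 tissue, inguinal white adipose tissue (iWAT) or brown adipose tissue (BAT), of WT and MCK-Musclin mice. Each tissue had 3 libraries of each genotype. The mice were male, and both genotypes in these tables had been kept at 8 °C for 1 week. The cold-exposed mice were 5 months old and fed chow, and the age and diet of the mice in the first table are not given in the sources used here. MCK-Musclin mice carry the Musclin coding sequence behind the muscle creatine kinase promoter, which drives it in skeletal muscle, and were backcrossed to C57BL/6J. Several founder lines existed and the line used is not given in the sources used here. Musclin is a hormone-like protein secreted by muscle, and the fat libraries were made to ask how fat responds to its excess. By the study's methods RNA of white fat was prepared with a kit and that of the other tissues with TRIzol, so tissue and extraction cannot be told apart between white fat and the rest. FPKM counts the fragments of a gene relative to the length of its exons and to all mapped fragments of the library, which allows levels of different genes to be set side by side, but the depth of each library is unknown. By the study's methods, RNA for sequencing came from independent animals within each genotype, so the replicates of iWAT and BAT were taken as separate mice.

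P450 enzymes are heme proteins that insert an oxygen atom into small molecules, and most of them sit in the endoplasmic reticulum, where they receive electrons from P450 oxidoreductase (Por). A smaller number work in mitochondria and are served by ferredoxin (Fdx1) and its reductase (Fdxr). Families 1 to 3 are known mainly for the metabolism of drugs, pollutants and dietary compounds in liver and gut, and family 4 for the hydroxylation of fatty acids and eicosanoids. The remaining families make or break down defined molecules such as bile acids, steroid hormones, vitamin D and retinoic acid.

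Many members are recent duplicates that lie side by side. Some start regions are shown first because some closely related sequences went with very different levels. Of the 67 members, 49 lay in 8 clusters of at least 3 P450 genes with gaps of at most 500 kb, and 18 lay elsewhere (GENCODE annotation of GRCm38). The largest group by members was the Cyp2c cluster at chr19:39007019-40187333, with 14 genes of which 13 were members. The Cyp2a to Cyp2t cluster at chr7:25802475-27158668 held 13 genes and 7 members. By coding sequence, 17 members had another P450 gene with at least 95% identity, and reads of such copies may have been assigned to the wrong one. Exons of 13 members overlap another gene, and reads were aligned without strand. Cyp2a4 and Cyp2a5 were the closest pair with 98.4% coding identity. The 120 bases before the RefSeq start site (GRCm38.p6, strand of the gene, 5′ to 3′) are given for this pair, for Cyp2c65 and Cyp2c66, a pair with 96.3% coding identity, and for Cyp2e1, the most abundant member. Capitals mark the TATA-type motif TATAAA as read on this strand.

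Cyp2a4 (chr7:26307072-26307191, plus strand): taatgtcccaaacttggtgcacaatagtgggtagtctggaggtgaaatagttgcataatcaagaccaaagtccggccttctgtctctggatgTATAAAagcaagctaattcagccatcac
Cyp2a5 (chr7:26835219-26835338, plus strand): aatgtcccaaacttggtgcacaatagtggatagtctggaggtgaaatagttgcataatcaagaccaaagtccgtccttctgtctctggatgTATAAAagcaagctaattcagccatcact
Cyp2c65 (chr19:39060886-39061005, plus strand): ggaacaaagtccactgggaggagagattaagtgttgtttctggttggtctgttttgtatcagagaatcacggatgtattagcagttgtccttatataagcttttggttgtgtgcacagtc
Cyp2c66 (chr19:39113778-39113897, plus strand): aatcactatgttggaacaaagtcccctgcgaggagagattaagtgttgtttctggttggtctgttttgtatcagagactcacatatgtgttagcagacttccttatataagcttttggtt
Cyp2e1 (chr7:140763699-140763818, plus strand): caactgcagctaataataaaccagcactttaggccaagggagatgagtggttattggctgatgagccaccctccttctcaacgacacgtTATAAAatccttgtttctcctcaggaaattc

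Shifted by 1 base, the Cyp2a4 and Cyp2a5 stretches differed at 2 of 119 aligned bases, yet Cyp2a5 had 701 FPKM in liver and Cyp2a4 had 4.15. Cyp2c65 and Cyp2c66 differed at 9 of 108 bases when shifted by 12 bases. Both of these genes are listed at 0 in liver, and in small intestine Cyp2c65 had 206 FPKM and Cyp2c66 had 83.6. Each member was paired with its closest P450 gene, which gave 9 pairs of at least 95% coding identity with both copies among the members. Of these, 8 had a liver level, and in them the higher copy exceeded the lower by between 2.52-fold and 165-fold, on the FPKM + 0.1 scale. Pairs with a copy outside the members are not in this range, which the member rule therefore limits. Nor are pairs in which neither copy was the closest gene of the other, such as Cyp4a31 and Cyp4a32. These had 8.75 and 9.69 FPKM in liver. Cyp2a12 had 300 FPKM in liver and its closest gene Cyp2a22 had 0.525. Cyp3a11 had 3463 and its closest gene Cyp3a41a is listed at 0. The part of reads shared between copies in these values was not tested.

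A second motif was searched because it is the DNA letters bound by HNF4-type nuclear receptors, which are known from liver and gut. RefSeq start windows of 300 bases, 250 before and 50 after the start site, were found for 53 of the 67 members. CAAAGTCCA was present on either strand in 8 of these 53 windows (15.1%) and in 0.475% of all 32851 windows. This is a description, as 6 motifs were looked at with the member list known and 6 of the 8 genes are duplicates in the Cyp2c cluster. The sites are shown with up to 20 bases on each side, on the strand of the gene and with the motif in capitals.

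Cyp2c65 (chr19:39060870-39060918, plus strand): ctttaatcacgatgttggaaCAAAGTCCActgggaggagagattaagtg
Cyp2c67 (chr19:39649139-39649187, minus strand): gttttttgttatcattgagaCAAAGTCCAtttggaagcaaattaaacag
Cyp2c68 (chr19:39741150-39741198, minus strand): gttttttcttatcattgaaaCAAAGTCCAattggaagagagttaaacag
Cyp2c40 (chr19:39812831-39812879, minus strand): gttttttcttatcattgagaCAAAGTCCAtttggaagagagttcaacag
Cyp2c69 (chr19:39886816-39886864, minus strand): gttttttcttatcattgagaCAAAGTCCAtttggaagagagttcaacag
Cyp2c70 (chr19:40187322-40187370, minus strand): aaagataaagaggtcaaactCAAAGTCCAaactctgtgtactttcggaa
Cyp3a11 (chr5:145879935-145879983, minus strand): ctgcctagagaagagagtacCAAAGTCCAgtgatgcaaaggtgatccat
Cyp8b1 (chr9:121916344-121916392, minus strand): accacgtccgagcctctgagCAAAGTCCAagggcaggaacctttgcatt

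The motif began between 45 and 125 bases before the RefSeq start site. The stretches of Cyp2c40 and Cyp2c69 were identical over all 49 bases, and that of Cyp2c67 differed from them at 5 bases. In liver these 3 genes had 14.7, 5.53 and 252 FPKM. Cyp2c67 and Cyp2c69 have 97.7% coding identity, so their reads may have been assigned to the wrong copy. A link between site and level was not tested. Cyp2c65 carried the motif and is listed at 0 in liver. Of the 8 genes, 7 had at least 5 FPKM in liver, as did 45 of the 66 members with at least 1 FPKM in any of the 7 tissues. None of the 8 exceeded 3.78 FPKM in any of the other 5 tissues outside liver and small intestine. Among the 66 members, 44 stayed under 1 FPKM in each of TA muscle, heart and brain. With 8 genes, these counts are not read as a result about the motif. The TATA-type motif was present in 26 of the 53 member windows (49.1%) and in 13.6% of all windows. The other motifs were GTTAAT in 9 member windows (17.0%) against 7.10% of all windows, TGTTTAC in 3 (5.66%) against 3.65%, and TTGCGCAA and TTGCGTG in 0 member windows against 0.183% and 1.16%. HNF4 itself (Hnf4a) had 109 FPKM in liver, 175 in small intestine and at most 0.309 in the other 5 tissues.

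Liver dominated the P450 profile of the 7 tissues. Of the 66 members with at least 1 FPKM in this table, 43 (65.2%) were highest in liver, compared with 8.18% of all 18327 genes that met the same limit. In 31 members (47.0%) the liver level exceeded the next tissue at least 10-fold, on the FPKM + 0.1 scale used for all tissue folds, and 2.27% of all genes did so. With 1 library per tissue there is no replicate check, and no test was made. Liver held 55 members at 1 FPKM or more, 36 at 10 or more and 20 at 100 or more. The summed level of the members was 14337 FPKM, or 2.57% of all FPKM of that library. The same sum was 2205 in white adipose tissue, 1491 in small intestine, 216 in brown adipose tissue, 173 in brain, 61.3 in TA muscle and 38.6 in heart. In that order these were 0.525%, 0.296%, 0.0304%, 0.0439%, 0.0105% and 0.00571% of all FPKM of the library. By share, brain thus lay above brown adipose tissue. In bulk tissue, fewer cells of a type and less RNA per cell cannot be told apart. In all, 5 members, given with their levels further on, reached 1 FPKM in all 7 tissues (7.58%), whereas 40.4% of all genes did.

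**Figure D1:**
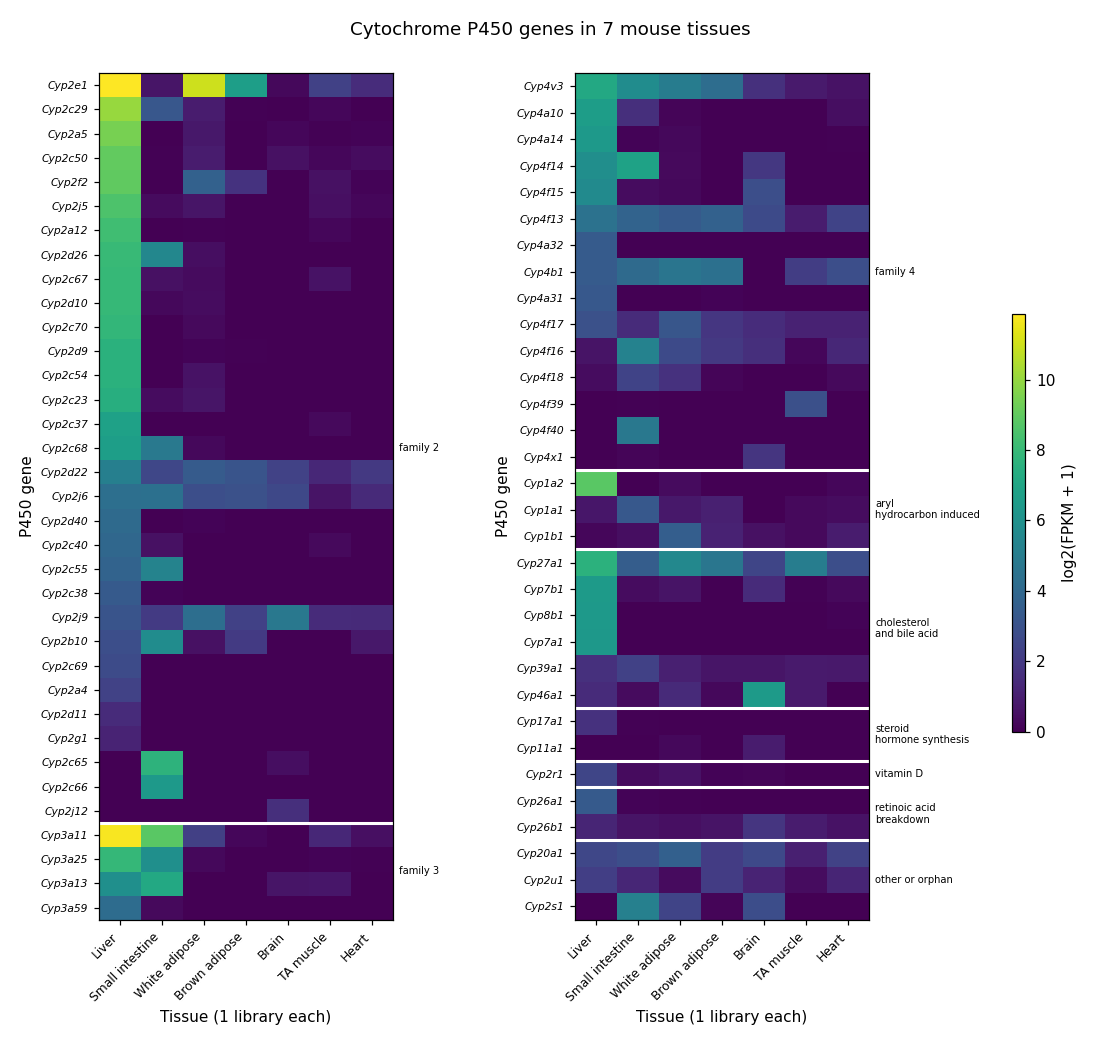
Expression of the 67 P450 genes (rows, grouped by role and ordered by liver FPKM) in 7 mouse tissues (columns, 1 library each), as log2(FPKM + 1) in colour. The liver column is the brightest for 43 of 66 genes, small intestine carries several Cyp2c, Cyp3a and Cyp4f genes, and Cyp2e1 is bright in liver, white and brown adipose tissue.

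The family 2 group, whose enzymes act on drugs, solvents and arachidonic acid, gave 31 members and 63.7% of the P450 sum in liver. Cyp2r1, Cyp2s1 and Cyp2u1 were placed in other groups by role and are not counted in it. Cyp2e1, the ethanol and acetone oxidizing enzyme, had 3775 FPKM in liver, 1990 in white adipose tissue, 101 in brown adipose tissue, 3.86 in TA muscle, 1.89 in heart, 0.598 in small intestine and 0.184 in brain. Liver thus exceeded white adipose tissue by only 1.90-fold, and this single gene made up 90.2% of the P450 sum of white and 47.0% of that of brown adipose tissue. Among the other family 2 members, Cyp2c29 had 1066 FPKM in liver, Cyp2a5, a coumarin hydroxylase, 701, Cyp2c50 521 and Cyp2f2, which activates naphthalene, 505. Each of these 4 was at most 12.0 FPKM in every other tissue. In all, 24 of the 31 were highest in liver.

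The high Cyp2e1 level in white adipose tissue was set beside liver transcripts in the same library. The 5 liver markers, Alb, Apoa1, Ttr, Serpina1a and Fgb, were in white adipose tissue at between 0.0905% and 0.250% of their liver level. Cyp2e1 was at 52.7% of its liver level there. Of the 20 members with at least 100 FPKM in liver, 4 exceeded 1% of their liver level in white adipose tissue, namely Cyp2e1, Cyp27a1 at 23.2%, Cyp4v3 at 21.9% and Cyp2f2 at 2.37%. The other 16 lay between 0 and 0.336%, a range that holds that of the liver markers. Among them Cyp3a11, with 3.78 FPKM in white adipose tissue, was at 0.109%. Of the 20 members, 7 were above the 0.161% of Alb. The part of liver RNA in these values was not tested.

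In the Cyp2c cluster the liver and intestinal genes lay in a row. Cyp2c55, Cyp2c65 and Cyp2c66 at one end were highest in small intestine, with 38.2, 206 and 83.6 FPKM, and had 12.9, 0 and 0 in liver. The 10 other members of the cluster were highest in liver, from 5.53 FPKM for Cyp2c69 to 1066 for Cyp2c29. Cyp2c68 stood between both patterns, with 99.8 FPKM in liver and 27.4 in small intestine. The adjacent Cyp2c37, Cyp2c54, Cyp2c50 and Cyp2c70 had 111 to 521 FPKM in liver and at most 0.0342 in small intestine. Cyp2c genes are known for the epoxidation of arachidonic acid.

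**Figure D2:**
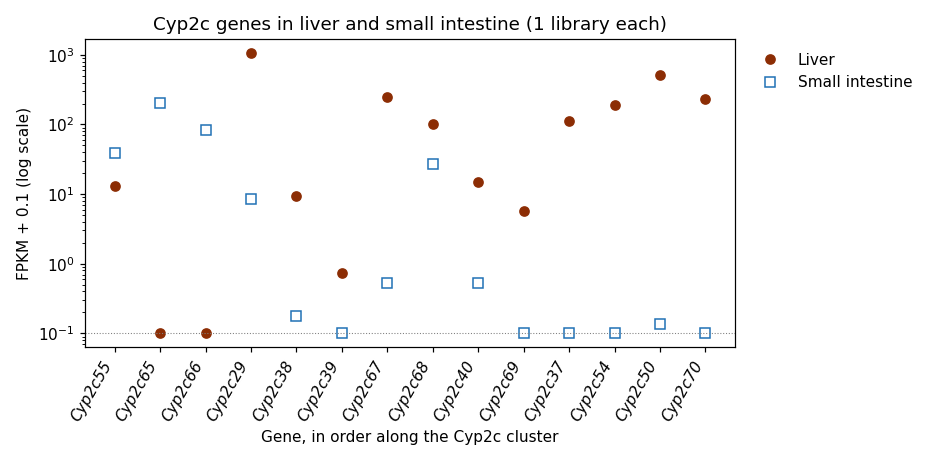
FPKM + 0.1 on a log axis for the 14 genes of the Cyp2c cluster in their order along the chromosome, in liver (filled circles) and small intestine (open squares), 1 library each; the dotted line marks genes listed at 0. The first 3 genes are higher in small intestine and the other 11 are higher in liver, including Cyp2c39, which stayed below 1 FPKM.

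Family 3, the drug and steroid hydroxylases, had 4 members and was the main family in small intestine, with 44.3% of the P450 sum there and 26.4% in liver. Cyp3a11, the main drug-metabolizing form, had 3463 FPKM in liver, 458 in small intestine, 3.78 in white adipose tissue and 1.50 in TA muscle. Cyp3a25 had 241 FPKM in liver and 59.1 in small intestine, and Cyp3a59 had 17.2 and 0.216. Cyp3a13 went the other way, with 144 FPKM in small intestine and 59.6 in liver. The 4 genes were therefore unequal in how they divided between liver and small intestine.

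Family 4, the fatty acid hydroxylases, had 15 members and gave 3.40% of the P450 sum in liver, 18.1% in small intestine and 36.9% in heart. Cyp4v3 had 143 FPKM in liver, 54.4 in small intestine, 31.3 in white and 18.3 in brown adipose tissue. The PPARα target genes Cyp4a10 and Cyp4a14 had 97.3 and 83.0 FPKM in liver and at most 2.01 elsewhere. Several Cyp4f genes were instead intestinal. Cyp4f14, which acts on leukotrienes, had 114 FPKM in small intestine and 57.8 in liver, and Cyp4f16 had 37.0 in small intestine and 0.563 in liver. Cyp4f40 had 26.3 FPKM in small intestine and is listed at 0 in the other 6 tissues. Cyp4b1 was spread more widely, with 23.7 FPKM in white adipose tissue, 19.8 in brown adipose tissue, 16.5 in small intestine, 9.52 in liver, 6.14 in heart and 3.44 in TA muscle, and it was listed at 0 in brain. Cyp4f39, which is known for making skin barrier lipids, had 6.37 FPKM in TA muscle and at most 0.0472 in the other 6 tissues.

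The 3 genes of family 1, which are known to be induced through the aryl hydrocarbon receptor (Ahr), were each highest in another tissue. Cyp1a2, the caffeine demethylase, had 462 FPKM in liver and at most 0.253 elsewhere. Cyp1a1 had 8.75 FPKM in small intestine, 1.04 in brown adipose tissue, 0.725 in white adipose tissue and 0.662 in liver. Cyp1b1, an estrogen hydroxylase of stromal cells, had 10.8 FPKM in white and 1.22 in brown adipose tissue and stayed below 1 in the other 5. Ahr itself lay between 0.703 FPKM in heart and 6.01 in liver.

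Of the 6 cholesterol and bile acid genes, 4 were highest in liver. Cyp7a1, the rate-limiting enzyme of bile acid synthesis, had 78.5 FPKM in liver and is listed at 0 in the other 6 tissues. Cyp8b1, which sets the ratio of cholic to other bile acids, had 83.6 FPKM in liver, and Cyp7b1, an oxysterol hydroxylase, had 87.5. Cyp27a1, the mitochondrial sterol 27-hydroxylase, was present throughout, with 195 FPKM in liver, 45.4 in white adipose tissue, 31.8 in TA muscle, 24.6 in brown adipose tissue, 10.5 in small intestine, 6.13 in heart and 4.65 in brain. It alone gave 51.9% of the P450 sum of TA muscle. Cyp46a1, the cholesterol 24-hydroxylase of neurons, had 87.3 FPKM in brain and at most 1.77 elsewhere, and gave 50.5% of the P450 sum of brain. Cyp39a1, another oxysterol hydroxylase, had 3.92 FPKM in small intestine and 2.16 in liver.

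The genes that make hormones were low. Cyp11a1, the side-chain cleavage enzyme that starts steroid synthesis, had 0.861 FPKM in brain and less in the other tissues, and became a member only through a single MCK-Musclin iWAT library with 1.11. Cyp17a1, which leads to androgens, had 2.19 FPKM in liver. Cyp2r1, a vitamin D 25-hydroxylase, had 4.54 FPKM in liver and at most 0.476 elsewhere. Of the retinoic acid hydroxylases, Cyp26a1 had 9.33 FPKM in liver and at most 0.0692 elsewhere, while Cyp26b1 had 2.56 in brain and 1.36 in liver.

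The other members have less defined roles. Cyp20a1, an orphan, ranged from 1.07 FPKM in TA muscle to 11.5 in white adipose tissue. Cyp2s1 had 35.5 FPKM in small intestine, 5.98 in brain and 4.35 in white adipose tissue. Cyp2u1, a fatty acid hydroxylase, had 3.63 FPKM in liver, 3.39 in brown adipose tissue and 1.42 in small intestine. Besides Cyp20a1, the members at 1 FPKM or more in all 7 tissues were Cyp27a1, Cyp2d22, Cyp2j9 and Cyp4f17, whose lowest levels were 4.65, 1.51, 1.67 and 1.20.

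Outside liver, 13 members were highest in small intestine, 5 in brain, 4 in white adipose tissue, 1 in TA muscle and none in heart or brown adipose tissue. Cyp2c65, Cyp2c66 and Cyp4f40 exceeded the next tissue at least 10-fold in small intestine, 3 of 66 members (4.55%) against 4.71% of all genes. In brain these were Cyp46a1, Cyp2j12 with 2.05 FPKM and Cyp4x1 with 2.55, again 3 of 66 against 7.86% of all genes. With 3 genes each, neither count is read as a result about P450 genes. The other brain members were Cyp2j9, an arachidonic acid epoxygenase, with 26.1 FPKM in brain against 18.4 in white adipose tissue, and Cyp26b1. Heart had 11 members at 1 FPKM or more and none at 10, led by Cyp4b1, Cyp27a1, Cyp4f13 with 4.29, Cyp20a1 with 4.01 and Cyp2d22 with 2.94. In TA muscle the members after Cyp27a1, Cyp4f39 and Cyp2e1 were Cyp4b1 and Cyp2j9 with 1.74.

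**Figure D3:**
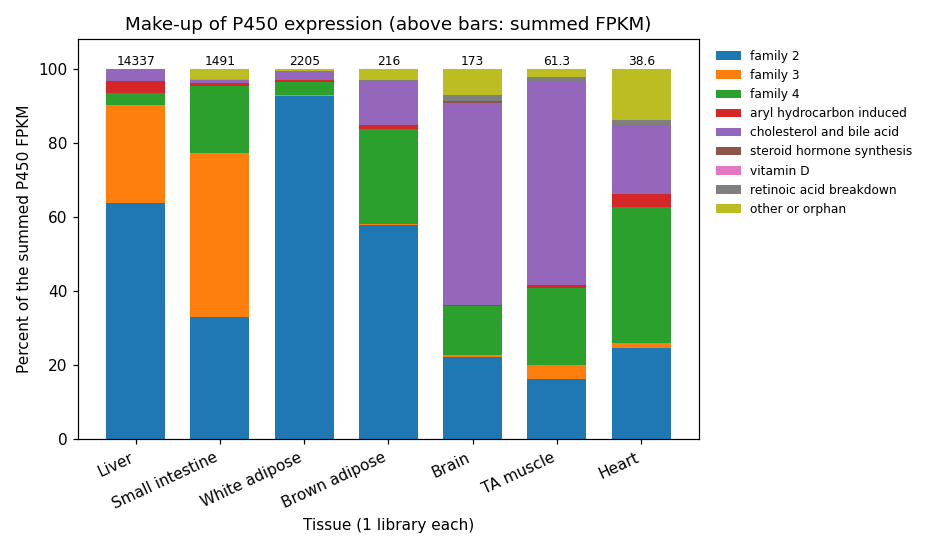
Share of each role group in the summed FPKM of the 67 P450 genes (stacked bars, percent) in 7 tissues with 1 library each; the number above a bar is the summed FPKM. The family 2 group, without Cyp2r1, Cyp2s1 and Cyp2u1, gives 92.6% in white adipose tissue. Family 3 gives 44.3% in small intestine, and cholesterol and bile acid genes give 54.6% in brain and 54.7% in TA muscle.

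Genes that serve P450 enzymes followed the P450 sum only in part. Por had 484 FPKM in white adipose tissue, 260 in liver, 112 in brown adipose tissue, 94.2 in small intestine, 23.5 in brain, 14.2 in heart and 5.86 in TA muscle, so it was highest in white adipose tissue. Cytochrome b5 (Cyb5a), an alternative electron donor, had 361 FPKM in liver and 180 in white adipose tissue. Alas1, the first enzyme of heme synthesis, had 607 FPKM in liver, 199 in white and 185 in brown adipose tissue. Among 10 heme genes, 8 were highest in liver, with Ppox highest in brain and Hmox1, which breaks heme down, in white adipose tissue. The drug sensors Nr1i2 and Nr1i3 had 28.9 and 92.7 FPKM in liver, 27.5 and 20.5 in small intestine and at most 0.0940 elsewhere. The vitamin D receptor Vdr, a known regulator of Cyp3a genes, had 86.6 FPKM in small intestine and 0.0698 in liver. P450 genes with other symbol forms included Cyp4a12a with 198 and Cyp4a12b with 73.3 FPKM in liver, Cyp51, the lanosterol demethylase, with 71.5, and Ptgis, the prostacyclin synthase, with 12.1 in white adipose tissue.

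In cold-exposed fat the libraries were first checked for the transgene and for other cells. In BAT Ostn, the gene of Musclin, was listed at 0 in all 3 WT libraries and lay between 30.3 and 37.9 FPKM in MCK-Musclin. In iWAT it was 0, 0 and 0.225 in WT and 0, 5.17 and 4.21 in MCK-Musclin, where it cannot check the first library, which also had the lowest sum of the 5 skeletal muscle markers (5.51 FPKM). That sum reached 2076 in WT replicate 3 of iWAT. The 6 lymphocyte markers summed to 162 to 262 FPKM in WT iWAT and to 316 to 406 in MCK-Musclin. The 5 brown adipocyte markers summed to 435 to 797 FPKM in WT iWAT. In MCK-Musclin iWAT they summed to 484, 139 and 75.8 in replicates 1, 2 and 3. MCK-Musclin replicate 1, with Ostn at 0, thus lay within the WT range for this sum.

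The iWAT table listed 24 of the 67 members, and 17 of them had a mean of at least 1 FPKM over the 6 libraries and were tested. Cyp2e1 was again the leading gene. It had 1402, 1222 and 1634 FPKM in the WT libraries and 1351, 809 and 1447 in MCK-Musclin. Between 78.3% and 87.0% of the P450 sum of an iWAT library came from it, and the genotypes overlapped with 1 low MCK-Musclin library. Its log2 difference on the log2(FPKM + 1) scale, MCK-Musclin minus WT, was -0.27 ± 0.24 (SE). By limma with Benjamini-Hochberg adjustment over all 12197 genes this gave an adjusted p of 0.601, and without MCK-Musclin replicate 2 the difference was -0.011.

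None of the 17 members passed the cutoff that was used for iWAT in the study, an unadjusted p under 0.05 with a log2 difference beyond 0.5. Of all genes tested 5.94% did. At an unadjusted p under 0.05 alone, 0 of 17 members and 16.5% of all genes were found by limma, and 0% of all genes had an adjusted p under 0.05. Cyp20a1 and Cyp4f13 had all MCK-Musclin libraries below all WT libraries, 2 of 17 members against 23.3% of all genes with groups apart in either direction. Cyp4f13 had 8.48, 8.42 and 8.28 FPKM in WT and 7.82, 8.20 and 8.15 in MCK-Musclin, a small step with a log2 difference of -0.05 ± 0.09. Cyp20a1 had means of 8.03 ± 0.337 (SD, n = 3) in WT and 7.45 ± 0.233 in MCK-Musclin, a log2 difference of -0.10 ± 0.09 (SE). Over the 17 members the median log2 difference was -0.0068, with 9 below and 8 above 0, and over all genes tested it was 0.061. The median of the members had no stable sign, as it was 0.068 without WT replicate 2, 0.067 without WT replicate 3, 0.033 without MCK-Musclin replicate 1, 0.041 without MCK-Musclin replicate 2 and -0.046 without WT replicate 1.

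**Figure D4:**
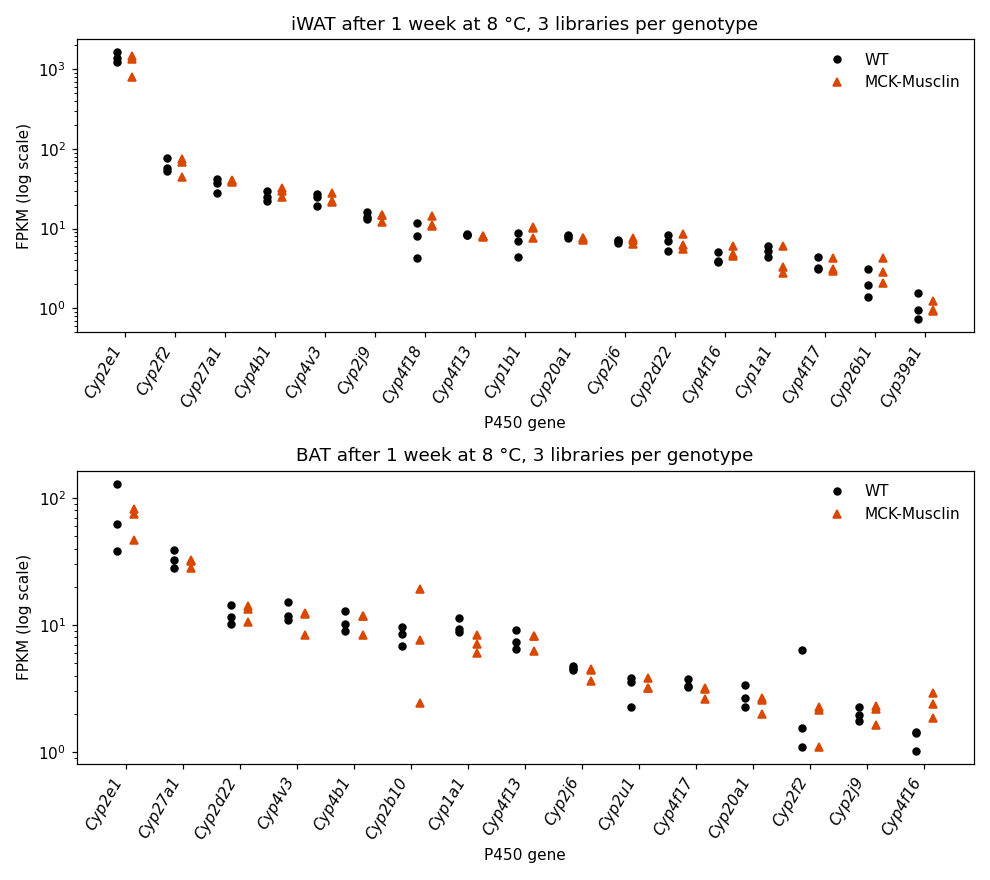
FPKM on a log axis of each P450 gene tested in iWAT (17 genes, upper panel) and BAT (15 genes, lower panel), with 3 WT libraries (circles) and 3 MCK-Musclin libraries (triangles) per gene. Cyp2e1 is the highest gene in both tissues and the genotypes overlap for 15 of 17 genes in iWAT and 12 of 15 in BAT.

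The largest log2 difference among iWAT members was that of Cyp4f18, a leukotriene B4 hydroxylase of white blood cells. It had 11.6, 8.19 and 4.33 FPKM in WT and 10.7, 14.3 and 11.1 in MCK-Musclin, so 1 WT library lay within the range of the transgenic ones. The log2 difference was 0.60 ± 0.30 (SE, 95% CI -0.10 to 1.29), with an adjusted p of 0.360 by limma. Without WT replicate 1 it was 0.88 (adjusted p = 0.160), and without WT replicate 3 it was 0.26 (adjusted p = 0.593). All 6 lymphocyte markers passed the unadjusted cutoff upward in the same libraries, whereas 1 of 5 macrophage markers did. The log2 differences of the macrophage markers ran from 0.025 for Mrc1 to 0.68 for Cd68. The part of either cell type in the Cyp4f18 values was not tested. Exons of Cyp4f18 overlap those of Zfp961, and the alignment did not use strand.

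Cyp1b1 had 8.75, 6.99 and 4.43 FPKM in WT and 10.2, 7.72 and 10.4 in MCK-Musclin, with a log2 difference of 0.46 ± 0.22 (adjusted p = 0.349 by limma). It was 0.65 without WT replicate 1 (adjusted p = 0.192), and 0.23 without WT replicate 3 (adjusted p = 0.597). The 5 stroma markers summed to 336 to 442 FPKM in WT and 422 to 475 in MCK-Musclin, and none passed the cutoff. Cyp1a1, of the same family, had 6.09, 4.40 and 5.19 FPKM in WT and 6.09, 2.80 and 3.32 in MCK-Musclin. Its log2 difference was -0.34 ± 0.24 (adjusted p = 0.513 by limma), and -0.61 without MCK-Musclin replicate 1 (adjusted p = 0.201). In none of these fits did the adjusted p pass 0.05. The opposite signs of both genes were not tested against each other.

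For the rest of the iWAT members the genotypes overlapped as well, apart from Cyp20a1 and Cyp4f13. Cyp2f2 was the second most abundant, with 53.4 to 76.0 FPKM in WT and 44.8 to 73.8 in MCK-Musclin. Cyp27a1 had 27.8, 41.5 and 37.2 FPKM in WT and 38.2, 40.8 and 40.2 in MCK-Musclin. The fatty acid hydroxylases Cyp4b1 and Cyp4v3 had means of 25.4 ± 3.67 and 23.8 ± 4.16 (SD, n = 3) in WT and of 28.8 ± 3.85 and 24.0 ± 3.81 in MCK-Musclin. Cyp26b1 had 1.97, 3.09 and 1.39 FPKM in WT and 2.84, 2.07 and 4.22 in MCK-Musclin, with a log2 difference of 0.36 ± 0.26. It was 0.16 without MCK-Musclin replicate 3, 0.18 without WT replicate 3, 0.57 without WT replicate 2 and 0.54 without MCK-Musclin replicate 2. The differences of Cyp2j6 and Cyp2d22 were 0.0087 and -0.0125, and the 95% interval of Cyp2j6 ran from -0.23 to 0.25. A further 7 members were listed but had a mean below 1 FPKM, among them Cyp11a1 with 0.504, 0.316 and 0.241 in WT and 0.704, 0.625 and 1.11 in MCK-Musclin, which entered the set through its highest library here and was given no test.

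In BAT all 67 members were listed, 34 of them at 0 in every library, and 15 were tested. The P450 profile was led by Cyp2e1, with 63.0, 38.4 and 129 FPKM in WT and 74.3, 47.0 and 81.4 in MCK-Musclin, and by Cyp27a1, with means of 33.2 ± 5.53 (SD, n = 3) and 30.9 ± 2.53. The genotypes overlapped for Cyp2e1, with WT replicate 3 the highest library, and its log2 difference of -0.046 (SE 0.41, adjusted p = 0.996 by limma) turned to 0.41 without WT replicate 3 and to 0.19 without MCK-Musclin replicate 2. Cyp2d22 had means of 12.0 ± 2.11 FPKM (SD, n = 3) in WT and 12.7 ± 1.88 in MCK-Musclin. Cyp4v3 and Cyp4b1 had means of 12.6 ± 2.31 and 10.7 ± 2.02 in WT.

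Cyp4f16 was the BAT member with the largest log2 difference. It had 1.43, 1.02 and 1.41 FPKM in WT and 1.87, 2.91 and 2.41 in MCK-Musclin, so every MCK-Musclin library was above every WT library. The log2 difference was 0.56 ± 0.16 (SE), with an unadjusted p of 0.0087 in limma and an adjusted p of 0.929 over 10893 genes. It stayed past the unadjusted cutoff in each fit that left out a library, with values from 0.46 to 0.68, but was not tested at a mean of at least 5 FPKM. Cyp4f16 had 0.164 FPKM in TA muscle and 2.87 in brown adipose tissue of the tissue table. The 5 skeletal muscle markers summed to 246 to 393 FPKM in WT BAT and 406 to 881 in MCK-Musclin. Of these markers, 4 of 5 passed the cutoff upward, where 202 of all 10893 genes did. The part of skeletal muscle in the Cyp4f16 values was not tested. In iWAT Cyp4f16 had 5.09, 3.92 and 3.80 FPKM in WT and 6.08, 4.75 and 4.54 in MCK-Musclin, with a log2 difference of 0.22 ± 0.15.

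Cyp1a1 was the other BAT member past the unadjusted cutoff, in the downward direction. It had 9.34, 8.88 and 11.3 FPKM in WT and 8.40, 6.02 and 7.05 in MCK-Musclin, without overlap. The log2 difference was -0.42 ± 0.15 (SE, unadjusted p = 0.023, adjusted p = 0.968 by limma). Leaving out WT replicate 3, MCK-Musclin replicate 2 or MCK-Musclin replicate 3 took it to -0.32, -0.31 and -0.41 with unadjusted limma p-values of 0.0815, 0.0775 and 0.0538. Thus 2 of 15 members passed the BAT cutoff of an unadjusted p under 0.05 and a log2 difference beyond 0.3, where 4% of all genes did. The share at an unadjusted p under 0.05 alone was 4.89% of all genes, and 0 members and 0.00918% of all genes had an adjusted p under 0.05.

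The groups did not overlap in BAT for Cyp4f17 either, which made 3 of 15 members against 10% of all genes. Cyp4f17 had 3.74, 3.24 and 3.32 FPKM in WT and 3.15, 3.18 and 2.64 in MCK-Musclin, a log2 difference of -0.15 ± 0.12. Cyp2b10, a phenobarbital-inducible enzyme, had 8.54, 6.83 and 9.71 FPKM in WT and 7.68, 2.43 and 19.1 in MCK-Musclin. The transgenic libraries lay both below and above all WT libraries, and its log2 difference of -0.14 turned to 0.51 without MCK-Musclin replicate 2. The median log2 difference was -0.089 over the 15 members, with 11 below 0, and -0.0084 over all genes. The median of the members was -0.18 without WT replicate 2, -0.029 without WT replicate 3 and -0.030 without MCK-Musclin replicate 2. The other tested members were Cyp4f13, Cyp2j6, Cyp2u1, Cyp20a1, Cyp2f2 and Cyp2j9, with log2 differences between -0.29 and 0.08.

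**Figure D5:**
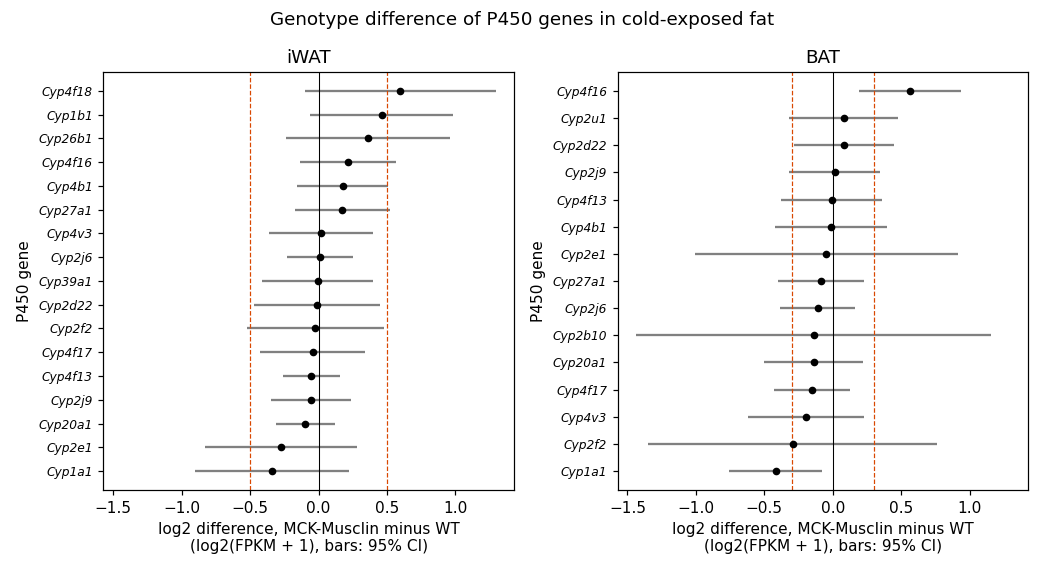
Difference between genotypes (MCK-Musclin minus WT, log2(FPKM + 1)) of each tested P450 gene in iWAT and BAT, as points with 95% confidence intervals from limma; dashed lines mark the log2 cutoff of 0.5 in iWAT and 0.3 in BAT. All intervals in iWAT include 0, and in BAT those of Cyp4f16 and Cyp1a1 do not.

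Among partner genes in the fat tables none had an adjusted p under 0.05 by limma. In iWAT none of 7 electron donors had an unadjusted p under 0.05, and Por had 269, 328 and 270 FPKM in WT and 261, 330 and 229 in MCK-Musclin. There 2 of 8 nuclear receptors tested and 1 of 10 heme genes had an unadjusted limma p under 0.05, where 16.5% of all genes did. Ppara, a regulator of Cyp4a genes, had 2.59, 4.33 and 5.11 FPKM in WT and 3.29, 1.53 and 1.77 in MCK-Musclin. Its log2 difference was -0.65 ± 0.26 (adjusted p = 0.280 by limma). Rara, a retinoic acid receptor, had 13.0, 13.0 and 12.3 FPKM in WT and 15.6, 16.2 and 18.8 in MCK-Musclin, with 0.37 ± 0.10 (adjusted p = 0.171). The heme gene was Fech, with -0.26 ± 0.11 (adjusted p = 0.296 by limma). In BAT 1 of 7 electron donors, 1 of 7 nuclear receptors and 2 of 10 heme genes had an unadjusted limma p under 0.05. Of all genes 4.89% did. The partner genes were Fdx2, Arnt, Alas1 and Alad, with limma p-values between 0.0095 and 0.0419 and adjusted p-values between 0.929 and 0.968. With so few genes, these counts are not read as a result about partner genes. Alas1 had 69.7, 64.9 and 78.8 FPKM in WT and 63.4, 60.1 and 54.2 in MCK-Musclin.

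Fat libraries of different tables were set side by side without a test, since tables were normalized apart and also differ in temperature and possibly in depot. Cyp2f2 had 12.0 FPKM in white adipose tissue of the tissue table and 53.4 to 76.0 in the WT libraries of cold iWAT. Cyp1a1 had 0.725 in white and 1.04 in brown adipose tissue, and 4.40 to 6.09 in cold iWAT and 8.88 to 11.3 in cold BAT of WT mice. Cyp4b1 had lower values in cold brown fat, with 19.8 FPKM in the tissue table and 9.06 to 13.0 in cold WT BAT. Cyp2e1 was higher in white than in brown fat in both settings, with 1990 against 101 FPKM in the tissue table and 1222 to 1634 in cold WT iWAT against 38.4 to 129 in cold WT BAT.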

How the data were processed

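RNA-Seq libraries of mouse tissue were aligned and quantified by the authors, who deposited FPKM per gene (StringTie after HISAT2 alignment to GRCm38, without strand). The submitters' processing notes name HISAT2 2.1.0, fastp, Bowtie, Bowtie2 2.4.1 and Cuffdiff, whereas the study's methods give another Bowtie2 version and do not name Cuffdiff, whose part in these values is not given in the sources used here. Read counts were not used here, so depth is unknown. The iWAT table also holds the authors' own comparison (mean counts, fold changes and p-values), which was not used. Genes with a mean of at least 1 FPKM over the 6 libraries of a table were fitted by limma 3.58.1 in R 4.3.3 on log2(FPKM + 1) with a trended prior, and p-values were adjusted by Benjamini-Hochberg over the table. Each table was fitted apart. An exact permutation test of 3 against 3 libraries cannot give a two-sided p below 0.1 and was not used. Tissue folds used FPKM + 0.1, with no test. Coding sequences were aligned with edlib 1.3.9.post1, and start windows came from RefSeq. The text names members by role, level, non-overlap of groups or cutoff. The members and lists were chosen with earlier results of these data known. The fit was tested on simulated data. Alternatives were another pseudocount, other filters, TPM and median-ratio scaling, no trend, a replicate block and leaving out each library.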

Additional observations from a re-analysis of the deposited data

How the results depend on the processing

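No member of iWAT or BAT had an adjusted p under 0.05 under any alternative run. Over all tested members the difference changed sign under at least 1 alternative for 7 of 17 in iWAT and 9 of 15 in BAT. In the 7 tissues, a limit of 5 FPKM took the members highest in liver from 43 to 37, those at least 10-fold higher there from 31 to 27 and those detected there from 55 to 45. This limit also leaves out members below 5 FPKM in every tissue, so fewer members stand behind these counts. A pseudocount of 1 took the 10-fold count to 23. The number of members past the unadjusted cutoff in iWAT was 0, and 0 to 2 when a library was left out, with Cyp1b1 and Cyp4f18 passing without WT replicate 1 and Cyp1a1 without MCK-Musclin replicate 1. In BAT it was 2, 1 to 2 when a library was left out, and 1 at a mean of at least 5 FPKM, where Cyp4f16 was not tested because its mean is lower. The BAT difference of Cyp2e1 turned to 0.41 without WT replicate 3 and 0.19 without MCK-Musclin replicate 2, and that of Cyp2b10 to 0.51 without MCK-Musclin replicate 2. Leave-one-out values ran from -0.45 to 0.41 for Cyp2e1 and from -0.77 to 0.51 for Cyp2b10, and the cause was not tested. The number of members in all 7 tissues, 5 at 1 FPKM, was 0 at 5 FPKM and 8 at 0.5 FPKM, as the limit itself sets it. With a replicate block 0 members passed the cutoff in iWAT and 2 in BAT, as without it. Deviations of libraries with the same number correlated by 0.0615 to 0.235 in iWAT and by -0.0951 to 0.00937 in BAT, so the numbers were not taken to pair libraries. Levels near 0 cannot be weighed because the read depth is unknown.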
